A study of Homo sapiens with 4 samples.

Results

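The question is whether 2 states of 1 melanoma line answered hypoxia with different changes in RNA. For each gene, the log2 fold of hypoxia over normoxia in stem-like cells was set against the same log2 fold in parental cells, and the stem-like minus the parental value is called the difference of responses. A positive value means a larger fold in the stem-like cells and a negative value a larger fold in the parental cells. The members are the 9006 genes detected on all 4 arrays, out of 20045 genes with a named probe. Of the genes left out, 8720 were detected on 0 arrays, 787 on 1 array, 1007 on 2 and 525 on 3.

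The line is A2058, an established human melanoma line, kept in DMEM with 10% serum. Its parental cells and cancer stem-like cells derived from them were each put in normoxia or hypoxia, which gives 4 groups with 1 array each: parental normoxia, parental hypoxia, stem-like normoxia and stem-like hypoxia. The stem-like cells had been under continuing selection with 100 uM carmustine, a DNA-alkylating drug, for 6 months, and the labels do not say whether they are 1 clone or a mixed population. How low the oxygen was, and for how long, the labels do not say. Total RNA was read on Illumina bead arrays, whose probes give a brightness for each transcript.

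Each difference rests on 4 arrays without replicates, so every value is a size, no test was made, and the spread between cultures is not known. In bulk RNA, fewer cells of a type and less RNA per cell cannot be told apart. Arrays were close in depth of detection, with 16432 to 16945 probes detected. Of the melanoma markers with a probe, 5 of 9 were detected on all 4 arrays (MITF, PMEL, SOX10, PRAME and S100A1), MLANA, TYR and TYRP1 on 2, and S100B on 0. Of the markers of other cell types, only LUM of 7 fibroblast genes and KRT10 of 6 keratinocyte genes were detected on all 4 arrays. Of the 4 leukocyte and the 4 endothelial genes, 0 were. The leukocyte gene CD14 was detected on 3 arrays, at log2 levels of 5.52 in parental normoxia and 7.83 and 8.11 in stem-like normoxia and hypoxia.

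As background, cells sense oxygen mainly through the hypoxia-inducible factors (HIF). With oxygen present, prolyl hydroxylases of the EGLN family mark the HIF alpha subunits, the VHL ubiquitin ligase binds them, and they are destroyed. When oxygen is short, the alpha subunits persist, pair with ARNT and bind a short core sequence, ACGTG or GCGTG, near genes for glucose uptake, glycolysis, mitophagy, blood vessel growth and collagen modification. Melanoma cells also differ in how much of the melanocyte programme they keep, from pigmented cells that express MITF to dedifferentiated cells that express AXL and AP-1 factors.

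For the typical gene the difference of responses was about as large as the disagreement between probes. The median difference over the 9006 genes was 0.00 and its SD over genes was 0.306 on the log2 scale. The SD between probes of 1 gene, measured on the same quantity in 2134 genes with at least 2 detected probes, was 0.282. A difference of at least 1, a 2-fold ratio between the folds, was reached by 29 genes (0.322% of members), and a difference of -1 or less by 31 genes (0.344%). Scaling each array to its median instead gave 24 and 39, and signals without background correction gave 2 and 4. At a size of 0.5, 439 genes (4.87%) lay above and 431 (4.79%) below, and 49.9% of all genes had a difference below 0. With the main processing, counts on both sides were close to even at either size. Its quantile normalization gives the 4 arrays the same distribution of levels, which favours a median near 0 and even counts. With median scaling the counts at a size of 1 were less even.

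**Figure D1:**
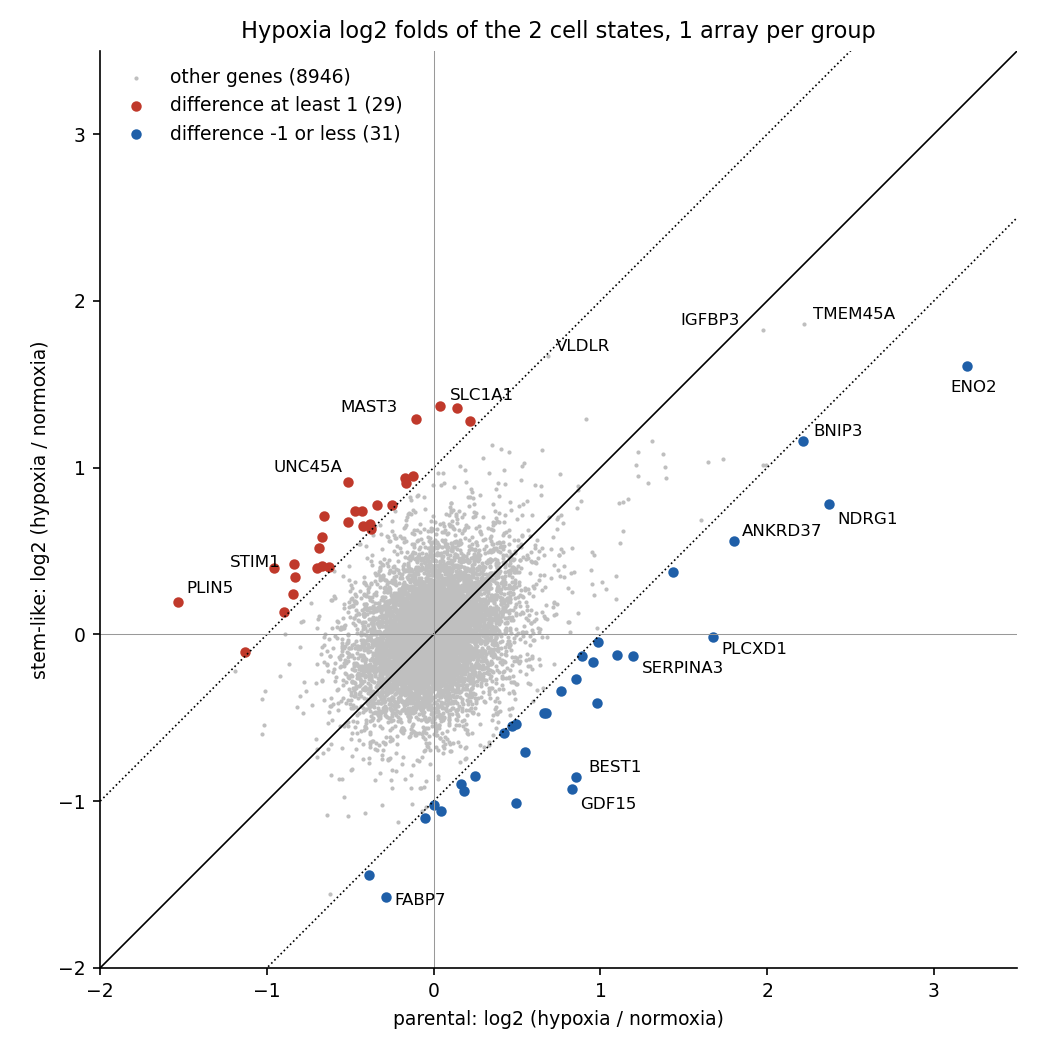
Log2 fold of hypoxia over normoxia for each of the 9006 genes, parental cells on the x axis and stem-like cells on the y axis, 1 array per group. Red points are the 29 genes with a difference of at least 1 and blue points the 31 with -1 or less, the solid line marks equal folds and the dotted lines a difference of 1; ENO2, BNIP3, NDRG1 and ANKRD37 lie far to the right below the lower dotted line, and most red points lie left of 0.

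The 31 genes with larger folds in parental cells fell into 4 response patterns. ENO2 and BNIP3 had log2 folds of at least 1 in both states. PLCXD1, NDRG1, SERPINA3, ANKRD37, KDM3A and IGFBP5 had such a fold in parental cells only. In 6 genes, among them FABP7, RXRG, ASPHD1, and MIR3142HG, the host transcript of a microRNA, the stem-like log2 fold was -1 or less and the parental fold lay between -1 and 1. In the other 17 neither fold reached a size of 1, and GDF15, BEST1, PRKD2 and TRIM62 led these. Of the 29 genes with larger folds in stem-like cells, 2 (PLIN5 and GINS4) had a parental log2 fold of -1 or less, 4 (MAST3, SLC1A1, NEURL1B and NT5E) had a stem-like fold of at least 1, and 23 had neither. The folds had opposite signs in 25 of these 29 genes and in 23 of the 31. Choosing genes by the difference favours opposite signs, and the share over all members was not counted.

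The hypoxia genes themselves are described first. By their brightest probes, the hypoxia folds of oxygen-sensing genes differed little between the states except for EGLN1. Of 10 measured members of the HIF pathway list, 0 reached a difference of 1 in either direction, 4 lay below 0, and the median difference was 0.02, beside 0.00 for all genes. EGLN1, which encodes the main HIF prolyl hydroxylase and is itself induced by HIF, had normalized log2 levels of 7.07 and 8.17 in parental normoxia and hypoxia, and of 7.002 and 7.35 in stem-like normoxia and hypoxia. Its level was highest in parental hypoxia, and its log2 folds were 1.09 and 0.35, a difference of -0.74. HIF1A, which encodes the HIF-1 alpha subunit, had folds of -0.09 and 0.00, but its second probe gave a difference of -0.41 against 0.09 for the brightest one. EPAS1, the HIF-2 alpha gene, had a difference of 0.13. VHL was at 0.03 by its brightest probe and at -0.44 and -0.18 by others, and the prolyl hydroxylase gene EGLN2 at 0.10 and by a second probe at 0.61. Of the 3 members with a second probe, only 1 had the same sign by both, and with the mean of the probes the list's median was -0.10. The asparaginyl hydroxylase gene HIF1AN was at -0.13 and the coactivator inhibitor gene CITED2 at 0.27. ARNT and EGLN3 were not detected on all 4 arrays.

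Known HIF target genes had, on balance, smaller log2 folds in the stem-like cells. Of 50 listed targets 46 had a probe and 35 were detected on all 4 arrays. A difference below 0 was found in 26 of the 35, where 49.9% of all genes lay below 0, and the median difference was -0.25, or -0.10 without background correction. A size of 1 was reached downward by 4 (NDRG1, ANKRD37, KDM3A and BNIP3) and upward by 1 (ANGPTL4), and a size of 0.5 by 7 and 5. A log2 fold of at least 1 was found for 15 of the 35 in parental cells and for 11 in stem-like cells. The share of all members with such a fold was not counted. The median folds of the list were 0.77 in parental and 0.81 in stem-like cells, beside -0.004 and 0.0001 over all genes. By these medians the response was present in both states and was not weaker in stem-like cells. Gene by gene, most differences were negative.

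**Figure D2:**
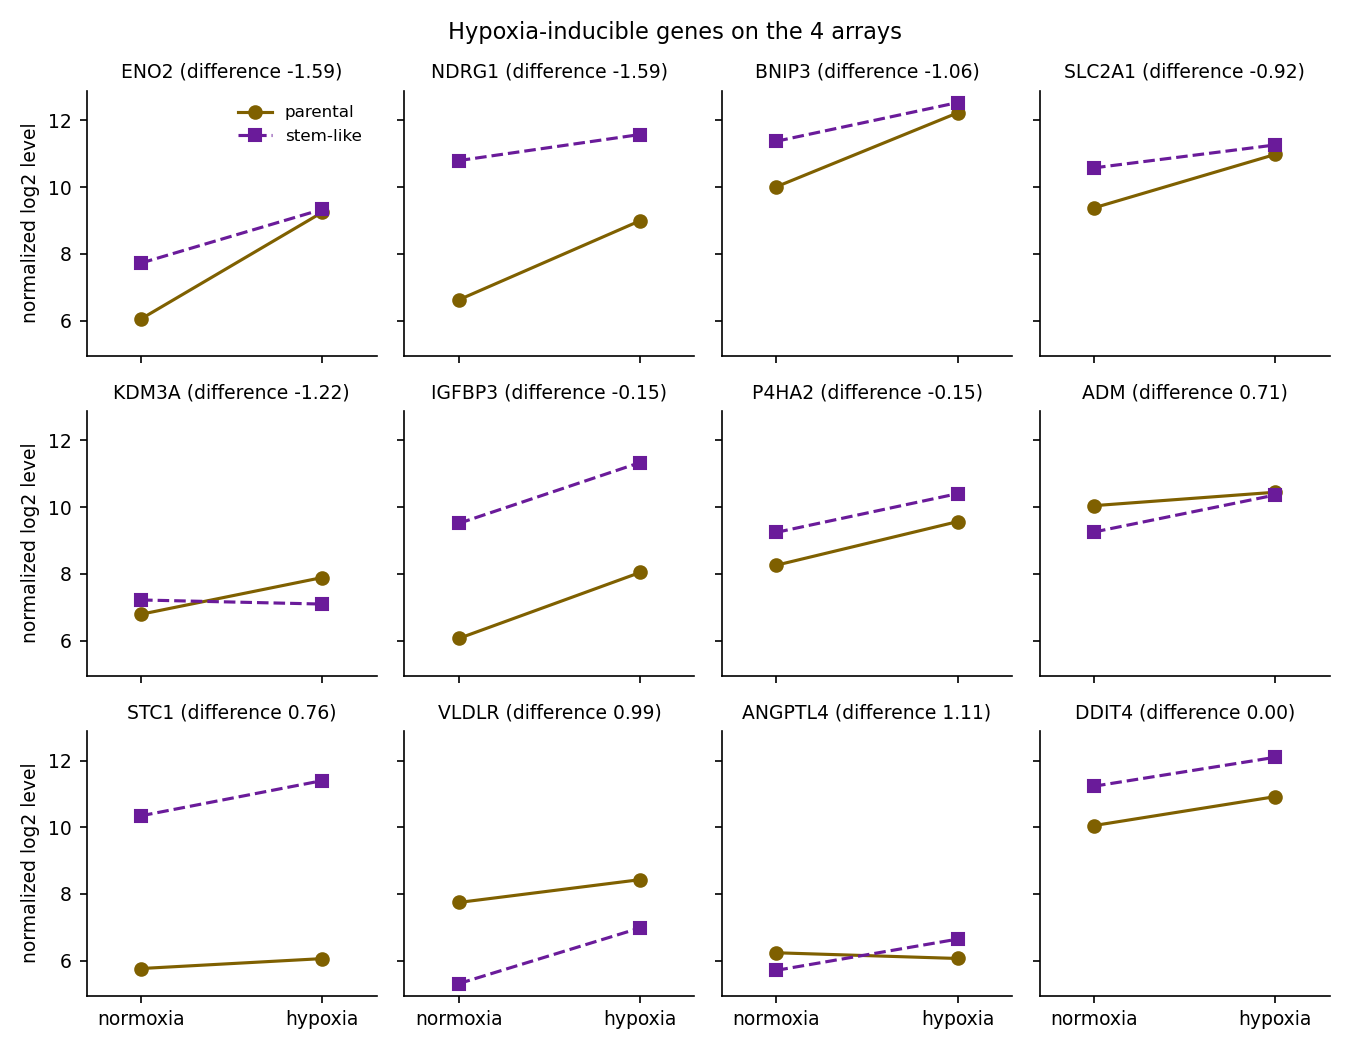
Normalized log2 levels of 12 hypoxia-inducible genes in normoxia and hypoxia, parental cells as circles with solid lines and stem-like cells as squares with dashed lines, 1 array per point. ENO2, BNIP3 and SLC2A1 reach nearly the same level in hypoxia from different starting levels, NDRG1 and IGFBP3 stay higher in stem-like cells throughout, and VLDLR and ANGPTL4 have the steeper line in stem-like cells.

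In several hypoxia-induced genes the 2 states stood further apart in normoxia than in hypoxia. ENO2, a glycolytic enolase named for its expression in neurons and counted here under glycolysis, had log2 levels of 6.05 and 9.25 in parental normoxia and hypoxia, and of 7.72 and 9.34 in the stem-like pair. In hypoxia the states stood within 0.1 of each other, and the gap lay in normoxia, where stem-like cells were higher. The log2 folds of 3.20 and 1.61 gave a difference of -1.59, or -0.85 without background correction. BNIP3, the mitophagy receptor gene, had levels of 10.01, 12.23, 11.38 and 12.54 in the same order. It too was higher in stem-like normoxia, and its difference was -1.06. SLC2A1, which encodes the glucose transporter GLUT1, had levels of 9.38, 10.98, 10.58 and 11.27 and a difference of -0.92. The difference of responses shares these normoxia arrays, so a high stem-like normoxia level and a small stem-like fold are not separate measurements.

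NDRG1, a stress and differentiation gene induced by hypoxia, had log2 levels of 6.62, 8.99, 10.80 and 11.58 in the same order. Both stem-like arrays were above both parental ones. Its log2 folds were 2.37 and 0.78 and its difference -1.59, or -0.89 without background correction. On the linear scale the order turned, since the normalized signal increased by 411 units in parental and by 1279 in stem-like cells. Among the 31 genes with a difference of -1 or less, NDRG1, IGFBP5 and FABP7 changed sign in this way, and 0 of the 29 in the other direction did. Of the 26 HIF targets below 0 on the log2 scale, 10 had the larger linear increase in stem-like cells.

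In ANKRD37 and KDM3A the stem-like level was above the parental one in normoxia and below it in hypoxia. ANKRD37, an ankyrin repeat gene and HIF target, had levels of 7.46, 9.26, 8.35 and 8.91, so that stem-like cells were higher in normoxia and lower in hypoxia. Its folds were 1.80 and 0.56, a difference of -1.24. Stem-like minus parental, its gap was larger in normoxia, at 0.89, than in hypoxia, at -0.35. KDM3A, a HIF-induced histone demethylase that removes methyl groups from lysine 9 of histone H3, had levels of 6.79, 7.89, 7.22 and 7.10. Only parental hypoxia stood high, with folds of 1.10 and -0.12 and a difference of -1.22. Its relative KDM4B, also a demethylase induced by hypoxia, had a difference of -0.74, while the demethylase gene KDM5B was at 0.06. Of 10 measured JmjC demethylase genes, the oxygen-dependent family these belong to, 5 lay below 0 with a median of 0.00.

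Near the size of 1 stood TF, the gene of transferrin, which carries iron in blood, at -0.97 and the mitochondrial adenylate kinase gene AK4 at -0.96. Both had log2 folds of at least 1 in both states, at 1.99 and 1.02 for TF and 1.97 and 1.02 for AK4, and both started over 3 log2 units higher in stem-like cells. AK4 has other detected probes, which gave differences of -0.67 and -0.26. Without background correction TF stood at -0.07 and AK4 at -0.38. VEGFA, the angiogenic growth factor gene, had a difference of -0.34 from folds of 1.13 and 0.80. The 13 genes with log2 folds of at least 1 in both states had negative differences, from -1.59 in ENO2 to -0.13 in GBE1, but that of IGFBP3 turned to 0.55 without background correction and to 0.22 with an offset of 50. The nearest to equal folds were GBE1, a glycogen branching enzyme, P4HA2, a collagen prolyl hydroxylase, at -0.15, IGFBP3, which binds insulin-like growth factors, at -0.15, and PDK3, a pyruvate dehydrogenase kinase, at -0.20. IGFBP3 had levels of 6.06, 8.04, 9.51 and 11.34, with starting levels over 3 log2 units apart. DDIT4, an inhibitor of mTOR signalling, had a fold of 0.87 in both.

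A smaller group of HIF targets had the larger fold in stem-like cells. ANGPTL4, a secreted inhibitor of lipoprotein lipase, had log2 levels of 6.24 and 6.07 in parental normoxia and hypoxia and of 5.71 and 6.65 in stem-like normoxia and hypoxia. Only the stem-like cells showed more of it in hypoxia, with a difference of 1.11. All 4 levels were low, where the arrays' floors are 5.22 to 5.29. ANGPTL4 had no value without background correction or with an offset of 50. VLDLR, the very low density lipoprotein receptor gene, had levels of 7.75, 8.43, 5.31 and 6.98 and folds of 0.68 and 1.67, a difference of 0.99. Its stem-like normoxia level lay close to the floor of 5.29, the lowest level of a detected probe on that array, and without background correction its difference was 0.21. STC1, which encodes the glycoprotein stanniocalcin-1, had levels of 5.76, 6.06, 10.34 and 11.40 and a difference of 0.76. ADM, the gene of the vasodilator peptide adrenomedullin, had levels of 10.05, 10.45, 9.26 and 10.37 and a difference of 0.71. Its level in hypoxia was alike in both states, and stem-like normoxia stood low. WSB1, a ubiquitin ligase adaptor, was at 0.56 by its brightest probe and at -0.47 by its second, and the collagen lysyl hydroxylase gene PLOD2 at 0.48 with further probes at 0.79 and -0.39.

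Among the 7 HIF targets with a second detected probe, 5 had the same sign by both, and 5 lay below 0 by either. In normoxia 24 of the 35 targets were higher in stem-like than in parental cells, with a median level gap of 0.37. In hypoxia 20 of the 35 were, with a median gap of 0.13. Of 19 housekeeping genes 11 were higher in each condition, with median gaps of 0.24 and 0.12. Of 29 ribosomal protein genes 22 were higher in normoxia and 23 in hypoxia. The share over all members was not counted. These gaps are made from the same 4 arrays as the differences of responses.

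Promoters are shown for 5 targets, since HIF acts through cores near the start of its target genes and these 5 include genes with the larger fold in parental and in stem-like cells. ENO2 comes from the glycolysis list and the other 4 from the HIF target list. The sequences are from RefSeq on GRCh38.p14 and run 5′ to 3′ on the strand of the gene from 250 bases before to 50 bases after its start. Capitals mark the letters ACGTG or GCGTG on either strand, which read CACGT or CACGC when they lie on the other strand, and cores on opposite strands may overlap. ENO2 (chr12:6914330-6914629, plus strand), ANKRD37 (chr4:185396591-185396890, plus strand) and BNIP3 (chr10:131981874-131982173, minus strand) had the larger fold in parental cells. VLDLR (chr9:2621537-2621836, plus strand) and ANGPTL4 (chr19:8363905-8364204, plus strand) had it in stem-like cells.
ENO2: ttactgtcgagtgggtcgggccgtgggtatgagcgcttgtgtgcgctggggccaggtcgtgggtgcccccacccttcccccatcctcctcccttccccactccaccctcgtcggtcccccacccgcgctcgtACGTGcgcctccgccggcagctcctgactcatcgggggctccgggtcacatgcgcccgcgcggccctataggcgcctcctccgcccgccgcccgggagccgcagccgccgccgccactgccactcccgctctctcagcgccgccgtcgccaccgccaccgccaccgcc
ANKRD37: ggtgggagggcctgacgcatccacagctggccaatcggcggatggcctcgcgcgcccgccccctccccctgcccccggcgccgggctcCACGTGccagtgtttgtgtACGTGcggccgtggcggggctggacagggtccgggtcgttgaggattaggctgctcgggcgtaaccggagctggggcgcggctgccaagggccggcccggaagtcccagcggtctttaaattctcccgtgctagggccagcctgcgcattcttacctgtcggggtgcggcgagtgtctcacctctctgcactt
BNIP3: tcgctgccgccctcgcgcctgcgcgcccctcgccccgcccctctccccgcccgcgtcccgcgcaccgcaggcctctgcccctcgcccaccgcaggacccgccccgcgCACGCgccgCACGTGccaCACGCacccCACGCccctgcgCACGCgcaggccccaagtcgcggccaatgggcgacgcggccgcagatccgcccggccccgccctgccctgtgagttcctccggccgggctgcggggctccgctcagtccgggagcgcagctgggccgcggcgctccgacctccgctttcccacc
VLDLR: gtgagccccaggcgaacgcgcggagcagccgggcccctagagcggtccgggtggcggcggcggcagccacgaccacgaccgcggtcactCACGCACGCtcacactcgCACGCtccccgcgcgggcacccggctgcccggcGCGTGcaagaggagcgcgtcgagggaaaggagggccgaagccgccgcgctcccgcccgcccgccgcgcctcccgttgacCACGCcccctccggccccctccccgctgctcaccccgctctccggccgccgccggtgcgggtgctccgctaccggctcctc
ANGPTL4: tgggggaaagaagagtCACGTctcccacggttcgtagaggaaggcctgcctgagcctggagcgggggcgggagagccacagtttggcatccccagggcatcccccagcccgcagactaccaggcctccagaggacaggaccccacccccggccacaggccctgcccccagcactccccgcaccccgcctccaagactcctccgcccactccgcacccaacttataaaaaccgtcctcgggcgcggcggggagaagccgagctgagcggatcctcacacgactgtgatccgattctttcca

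The windows held 1 core in ENO2, 3 in ANKRD37, 6 in BNIP3, 5 in VLDLR and 1 in ANGPTL4, so cores were present on both sides of the difference. At least 1 core was found in 23 of 27 windows of measured HIF targets (85.2%), in 65.6% of 7401 windows of all members, and in 48.4% of the 27305 windows in the table. Among genes with a difference of at least 1 it was 18 of 24 with a window, and among those with -1 or less 11 of 24 (45.8%). A match is a string of letters in a short window and does not show binding.

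Glycolysis genes leaned the same way as the HIF targets. Of 27 measured members 20 lay below 0, the median difference was -0.20, and 6 reached -0.5 or less while 0 reached 0.5. ENO2 alone passed a size of 1. The median log2 fold of the list was 0.70 in parental and 0.48 in stem-like cells. The larger differences lay at glucose entry and at both early and late steps. Several genes of the first steps differed less. The hexokinase gene HK1 was at -0.19 and the isomerase gene GPI at -0.28. The phosphofructokinase genes PFKM, PFKP and PFKL were at -0.37, -0.10 and 0.03. Besides SLC2A1, the glucose transporter gene SLC2A3 (GLUT3) had levels of 8.97, 10.06, 10.16 and 10.38 and a difference of -0.88, and stem-like cells were above parental cells in both conditions. HK2, which encodes hexokinase 2, was at -0.57 by its brightest probe and at 0.17 by its second. The aldolase genes ALDOC and ALDOA stood at -0.68 and -0.52 (-0.20 by a second probe of ALDOA), the phosphoglycerate mutase gene PGAM1 at -0.49 with a second probe at -0.68, and PFKFB4, a kinase and phosphatase that tunes glycolysis, at -0.46. Core enzymes with high signals differed little: GAPDH was at 0.02 (and at -0.08 with median scaling), PGK1 and ENO1 at -0.05, PKM at -0.10 and TPI1 at 0.11. LDHA, which makes lactate, had folds of 0.43 and 0.07 and a difference of -0.36, with -0.21 and -0.04 by other probes. Of the 12 glycolysis members with a second probe, 9 had the same sign by both.

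**Figure D3:**
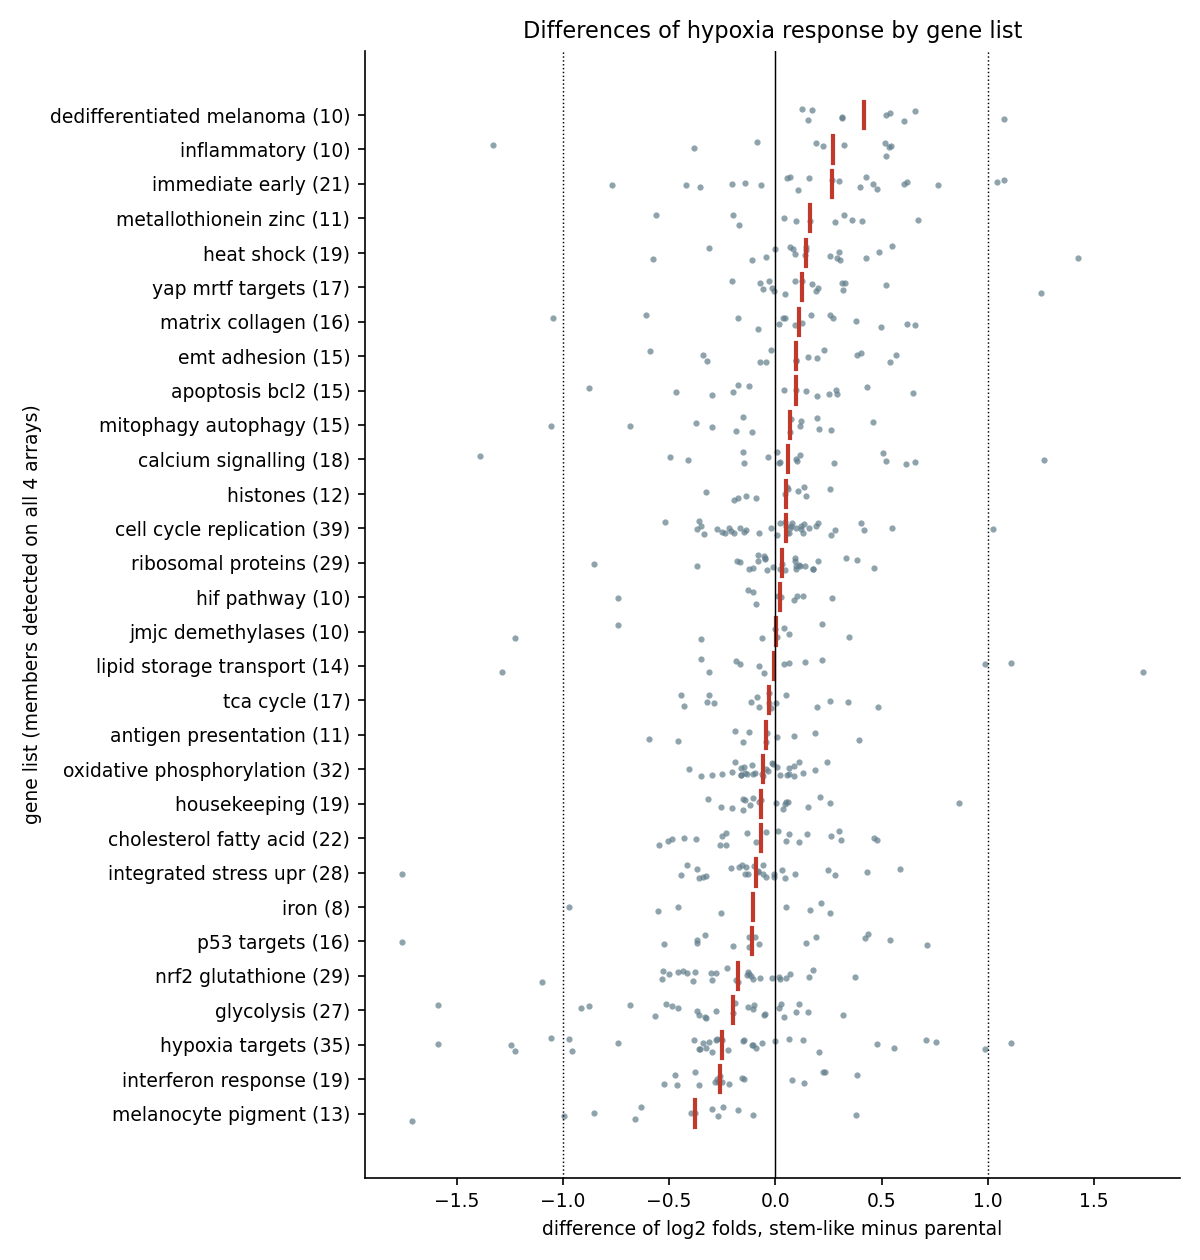
Difference of log2 folds (stem-like minus parental) for the members of 30 gene lists detected on all 4 arrays, 1 point per gene, with the list's median as a red bar, the number of members in brackets, and dotted lines at a difference of 1. Medians run from -0.38 for melanocyte and pigment genes to 0.42 for dedifferentiated melanoma genes, and points of most lists spread to both sides of 0.

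Melanocyte and pigment genes leaned the other way from dedifferentiation genes. Of 23 melanocyte and pigment genes with a probe, 13 were detected on all 4 arrays. Among these 13 genes 12 had a negative difference, and the median was -0.38. MITF, the master transcription factor of melanocytes, had log2 levels of 9.58 and 9.97 in parental normoxia and hypoxia and of 7.34 and 6.88 in stem-like normoxia and hypoxia. Parental cells were above stem-like cells throughout, and hypoxia went with a higher level in parental and a lower level in stem-like cells, a difference of -0.85. BEST1, a chloride channel gene of pigment cells, had levels of 6.89, 7.75, 6.96 and 6.10. It moved apart in hypoxia alone, with folds of 0.85 and -0.86 and a difference of -1.71. CAPN3, a calpain protease gene expressed in melanocytes, was at -0.99 (-0.33 without background correction) and the melanosome transport gene RAB27A at -0.66. CAPN3 and the pigment protein gene PMEL (difference -0.63) both had a level of 5.28 in stem-like hypoxia, where the floor was 5.22. In 7 of the 13 genes the level in normoxia was already at least 1 log2 unit lower in stem-like cells, and in hypoxia in 12 of them. Of 19 housekeeping genes 0 were so in either condition, and the share over all members was not counted.

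FABP7 and RXRG, which are expressed in neural crest-like melanoma cells, were also lower in hypoxia in stem-like cells. FABP7, a fatty acid binding protein gene of glia and neural crest, had levels of 11.97, 11.68, 8.52 and 6.94 and folds of -0.29 and -1.58. Stem-like hypoxia stood lowest, and the difference was -1.29. On the linear scale the decrease was larger in parental cells, where the gene was brighter. RXRG, a retinoid X receptor gene, had levels of 7.88, 7.93, 7.52 and 6.46 and differences of -1.10 and -0.57 by its probes.

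Of 17 dedifferentiated melanoma genes with a probe, 10 were detected on all 4 arrays. All 10 had a positive difference, with a median of 0.42. FOSL1, a subunit of the AP-1 transcription factor, had levels of 6.28, 5.85, 6.68 and 7.33, lower in hypoxia in parental cells and higher in stem-like cells, and a difference of 1.08. THBS1, the matrix protein thrombospondin-1, was at 0.66, the AP-1 subunit JUN at 0.60, the integrin gene ITGA3 at 0.54 and the receptor kinase gene AXL at 0.52, with 0.41 by a second probe of AXL. Only 1 of these genes reached a size of 1, and the list's median parental fold was -0.01 against 0.49 in stem-like cells. All 4 members with a second probe were positive by both probes. These 10 genes were also all higher in stem-like normoxia, by a median of 1.75. Of 19 housekeeping genes 11 were, by a median of 0.24, and the share over all members was not counted.

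Immediate early genes, which respond within minutes to growth and stress signals, leaned upward as well, with a median of 0.27 over 21 genes, 6 of them below 0, or 0.14 without background correction. FOSL1 is on this list too. DUSP1, a phosphatase that turns off MAP kinases, had levels of 7.21, 6.83, 8.91 and 9.57 and a difference of 1.04. IER2 was at 0.76, and the AP-1 subunit FOSL2 went against the list at -0.77. The inflammatory list had a median of 0.27 over the 10 genes detected on all 4 arrays, of 25 with a probe. The adhesion gene ICAM1 was at 0.55, the NF-kB subunit NFKB1 at 0.54 and the chemokine CXCL1 at 0.52. SERPINA3, an acute phase protease inhibitor on the same list, had levels of 11.04, 12.24, 14.28 and 14.15 and a difference of -1.33. Its stem-like levels lay close to the highest level on the arrays, 14.45.

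Interferon response genes lay below 0 in 14 of 19, with a median of -0.26, and 0 of them reached a size of 1. BST2, an antiviral tethering protein, was at -0.53, IFI6 at -0.47 (-0.22 by a second probe) and PARP9 at -0.46, while IFITM3, an antiviral membrane protein, was at 0.38. Of the glutathione and NRF2 genes, which protect against oxidants, 22 of 29 lay below 0 with a median of -0.17. HMOX1, which encodes the heme-degrading enzyme heme oxygenase 1, had levels of 6.07, 6.32, 6.58 and 5.73, lowest in stem-like hypoxia, and a difference of -1.10. These levels were low, and without background correction the difference of HMOX1 was -0.47. The malic enzyme gene ME1 and the glutathione transferase gene MGST1 were both at -0.53, with -0.61 and 0.05 by other probes of MGST1, and NQO1 was at -0.50 by its brightest probe but at 0.44 by its second. In the stress response list GDF15 stood out. This stress-induced cytokine had levels of 10.33, 11.16, 6.67 and 5.75, higher in hypoxia in parental cells and lower in stem-like cells, and the most negative difference of all members, -1.76.

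Medians of housekeeping and core metabolic lists were near 0. They were -0.06 for 32 oxidative phosphorylation genes, -0.03 for 17 genes of the citric acid cycle, 0.03 for 29 ribosomal proteins, 0.05 for 39 cell cycle and replication genes and -0.07 for 19 housekeeping genes. Of the oxidative phosphorylation genes 21 were below 0, and 0 of them reached a size of 0.5. Single members stood further out. GINS4, a subunit of the replication helicase, was at 1.03, from levels of 7.95, 6.82, 6.27 and 6.16 that were highest in parental normoxia. The cyclin gene CCND1 was at 0.55, the replication licensing gene CDC6 at -0.52, the ribosomal protein gene RPL7 at -0.85 and the splicing gene SNRPD3, on the housekeeping list, at 0.87.

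The other medians lay between these. They were -0.11 for 16 p53 targets, -0.10 for 8 iron genes, -0.09 for 28 genes of the integrated stress and unfolded protein responses, -0.07 for 22 cholesterol and fatty acid synthesis genes, -0.04 for 11 antigen presentation genes and -0.01 for 14 lipid storage and transport genes. On the other side they were 0.05 for 12 histones, 0.06 for 18 calcium signalling genes, 0.07 for 15 mitophagy and autophagy genes (-0.15 with a level of at least 7 on all arrays), 0.10 for 15 genes of the BCL2 family and its partners, 0.10 for 15 genes of adhesion and epithelial-mesenchymal transition, 0.11 for 16 matrix genes, 0.13 for 17 targets of YAP and MRTF, 0.14 for 19 heat shock genes and 0.16 for 11 genes of metallothioneins and zinc transport.

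Among the largest single differences upward was PLIN5, a perilipin that coats lipid droplets, at 1.73. Its levels of 9.36 and 7.83 in parental normoxia and hypoxia, and of 8.41 and 8.61 in the stem-like pair, set parental hypoxia apart as the low array. UNC45A, a myosin chaperone, had levels of 9.41, 8.90, 8.67 and 9.58 and a difference of 1.43, but its second probe gave -0.12. NAV2 at 1.37 and HINT3 at 1.36 likewise had second probes below 0, at -0.28 and -0.35, and NAV2 had a further probe at 0.19. The glutamate transporter gene SLC1A1 had levels of 6.15, 6.18, 5.67 and 7.03 and a difference of 1.33, and only stem-like hypoxia stood high. MAST3, a kinase gene, was at 1.40 and NEURL1B, a ubiquitin ligase gene, at 1.22, both with stem-like folds of at least 1. NT5E, which encodes the ectoenzyme CD73, had levels of 6.95, 7.17, 8.62 and 9.90 and a difference of 1.06.

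STIM1, the calcium sensor of the endoplasmic reticulum, was at 1.26, the SRF coactivator gene MRTFB at 1.25, WDR76 at 1.21, and the neurotrophin gene BDNF at 1.21. SNORD139, C1orf115, the acetyltransferase gene KAT5 and the lysosomal phosphatase gene ACP2 completed the 15 largest at 1.12 to 1.19. STIM1 had levels of 6.29, 5.45, 5.74 and 6.16, all of them low, and BDNF had 6.17, 5.48, 8.003 and 8.52. In 18 of the 29 genes the lowest of the 4 levels was under 6, where the arrays' floors are 5.22 to 5.29. The same held for 12 of the 31 genes in the other direction. How many of all members had a lowest level under 6 was not counted.

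Downward, PLCXD1, a phospholipase domain gene, had levels of 8.04, 9.72, 8.61 and 8.59 and a difference of -1.70. Parental hypoxia was the 1 high array. MIR3142HG was at -1.51, PRKD2, a protein kinase D gene, at -1.39 and the ubiquitin ligase gene TRIM62 at -1.25. NDUFAF8, an assembly factor of respiratory complex I, was at -1.15, KLHL23 at -1.13 and CASTOR3P at -1.12. MGP, which encodes matrix Gla protein, an inhibitor of calcification, had levels of 11.30, 11.25, 8.95 and 7.86 by its brightest probe, lower in hypoxia in stem-like cells only. It was the 1 gene whose probes all reached a size of 1, at -1.05 and -1.24. IGFBP5, which like IGFBP3 binds insulin-like growth factors, had levels of 8.49, 9.93, 13.02 and 13.40 and differences of -1.06 and -0.99 by its probes.

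Few of the largest differences could be read by a second probe. Of the 31 genes 4 had a second detected probe, and it had the same sign in 3 (MGP, IGFBP5 and RXRG) and the opposite sign in ST7, which had a further probe at -0.24. Of the 29 genes 3 had one, and it had the same sign in 0. At a size of 0.5, the second probe had the same sign in 41 of 62 genes upward and 49 of 73 downward. Across the 2134 genes the differences of the brightest and the second probe had a Pearson correlation of 0.20 and a Spearman correlation of 0.19, and probes of 1 gene share the same 4 arrays. All probes reached 0.5 in 11 genes upward and -0.5 in 16 downward.

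**Figure D4:**
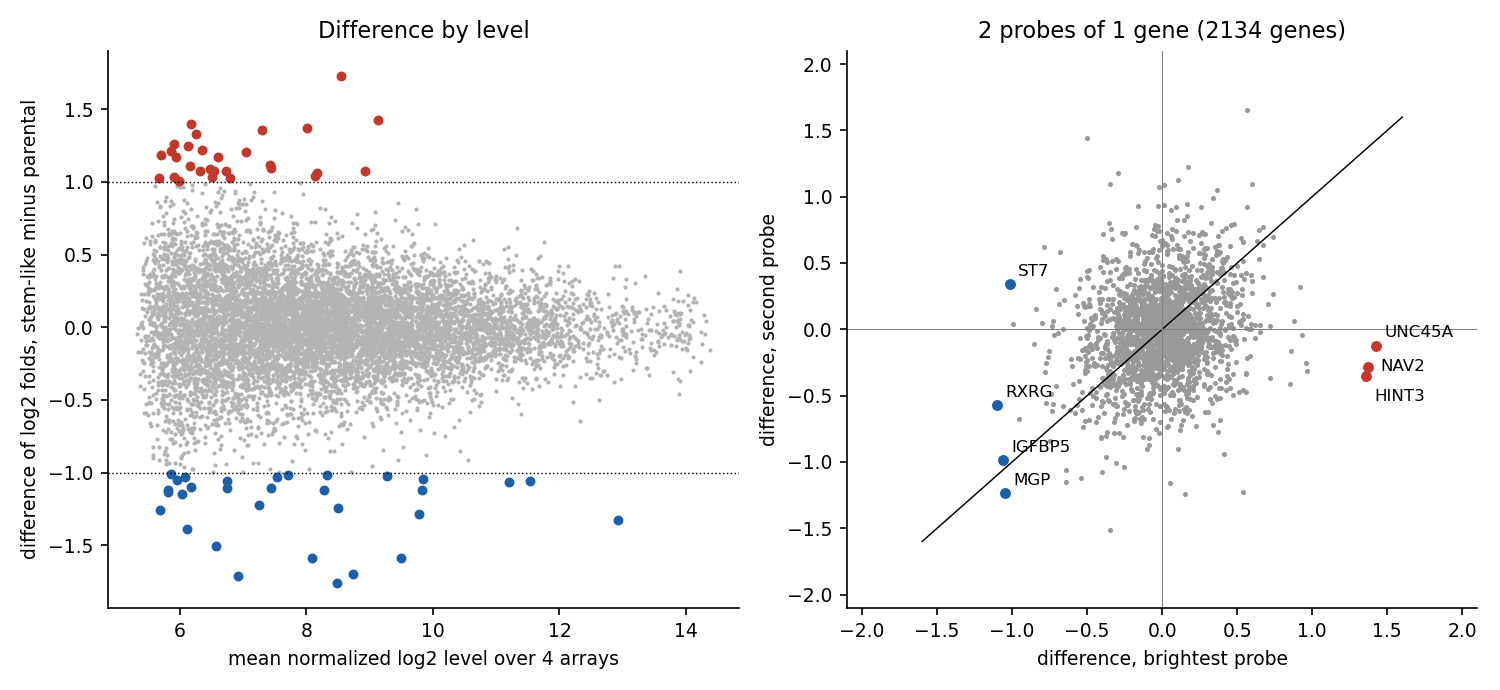
Left, difference of log2 folds against the mean normalized log2 level for 9006 genes, with the 29 and 31 genes past a size of 1 in red and blue. Right, the difference by the second probe against that by the brightest probe for 2134 genes, with a line of equality; UNC45A, NAV2 and HINT3 lie below 0 by their second probe, and MGP, IGFBP5 and RXRG are negative by both.

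Ranked by the mean over probes that all had the same sign, the ceramidase gene ACER3 led upward at 1.11, with probes at 0.56 and 1.65, followed by the cytoskeletal adaptor gene SORBS2 at 0.85, ERCC6L, a helicase of mitotic chromosomes, at 0.74 and the zinc exporter gene SLC30A1 at 0.72. SLC30A1 had levels of 7.16, 6.15, 7.63 and 7.29 and its probes agreed closely, at 0.67 and 0.77. The actin-binding gene TAGLN2 at 0.71, DENND2B at 0.70, the kinase gene MAPK9 at 0.66 and the membrane repair gene MYOF at 0.66 followed. MYOF was positive by 3 probes, from 0.58 to 0.75. Downward, after MGP and IGFBP5, came the lipid droplet dehydrogenase gene HSD17B11 at -0.93, C12orf60 at -0.90, CTH, an enzyme of cysteine synthesis, at -0.85, RXRG at -0.84, PTGR1 at -0.83 and PIR at -0.79. The reductase gene PTGR1 and the nuclear iron protein gene PIR were negative by both probes, PIR at -0.75 and -0.84.

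The spread of differences depended on brightness. In the 1468 genes with a mean log2 level under 6.5 the SD of the differences was 0.402 and 14 and 9 genes passed a size of 1 upward and downward. From 6.5 to 8 the SD was 0.335 with 9 and 8 such genes, from 8 to 10 it was 0.271 with 6 and 11, and in the 1728 genes at 10 or above it was 0.206 with 0 and 3. The SD between probes of a gene followed, from 0.352 in the dimmest to 0.247 in the brightest genes. The 3 brightest genes past the size were BNIP3, IGFBP5 and SERPINA3. The correlation between the parental and the stem-like folds across genes was 0.16 in the dimmest and 0.48 in the brightest genes. It describes these arrays, since genes are not independent replicates.

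Genes detected on 2 or 3 arrays allow a bound where the undetected value is raised to its array's floor. Such bounds reached at least 1 in 7 genes and -1 or less in 7. The difference was at least 1.51 in ZFP1, at least 1.29 in TMEM87B, at least 1.22 in IL12A, which encodes an interleukin-12 subunit, and at least 1.08 in the autophagy receptor gene CALCOCO2. It was -1.42 or lower in ZBTB6, -1.18 or lower in the Wnt signalling gene PYGO2, -1.16 or lower in MOSPD1 and -1.12 or lower in the protease inhibitor gene SERPINA5. STC2 and COXFA4L2, HIF targets that were not detected on all 4 arrays, are not members. Of 20045 genes with a probe, 1007 were detected on 2 arrays. Among these, detection on both stem-like but neither parental array was found for 476 genes, and the reverse for 350. Detection on a single array was found for 282 genes in stem-like hypoxia and for 212 in parental hypoxia. Just inside the detection threshold of 0.01, ATG2B and CADPS had highest detection p-values of 0.0091 and differences of -0.09 and 0.18. Just outside, AIFM2 and ASB7 had 0.0104 and differences of -0.77 and 0.39.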

How the data were processed

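RNA from 4 A2058 cultures, 1 per group, was read on Illumina bead arrays. The deposited non-normalized table holds, per the file headers, a mean bead intensity for every probe with its detection p-value. The authors' second table has intensity values with equal quantiles on the 4 arrays, judged from the values. The scanner software is not given in the sources used here, nor is the method behind the second table. In the first of these, 98.0% of 47315 identifiers stood 1 to 8 lines away from their values. Each of the 47323 value lines was given the probe whose values in the second table it matched along 1 ordered path, and 8 lines matched none. Levels of 2 probes of a gene then had a Spearman rho of 0.482 over 6691 genes, against 0.022 by the printed identifiers.

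Background correction and normalization used limma 3.58.1 under R 4.3.3 (neqc, with negative controls inferred from detection p-values, normexp with an offset of 16, quantile normalization, log2). A probe is detected at a detection p-value under 0.01. The brightest probe stands for a gene, and other probes are given for the genes most discussed. Folds of dim genes shrink toward 1 because of the offset. Probe names come from the platform annotation, which can be old: 30112 had 1 symbol, 8 had several and 17195 had none. Of the first kind, 30073 matched the RefSeq gene table of GRCh38.p14 and 0 symbols were updated. No build is named for the array.

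No test was made, since each group has 1 array, and a difference counts at a size of 1. Named genes are the 15 largest each way, the 8 largest each way by the mean of agreeing probes, up to 4 per list and per response pattern, any HIF pathway, HIF target or glycolysis gene, the 8 genes with folds of at least 1 in both states and the nearest folds, the 4 largest bounds each way, 4 genes at the detection threshold, and genes whose folds had opposite signs. The 35 lists hold 801 entries, of which 748 had a probe and 5 matched under a newer symbol. Members, lists and rules were chosen with earlier results of these data known. Alternatives changed the background correction, its offset, the normalization, the table, the detection filter and the choice of probe. The calculation was tested on simulated data. Near-identical gene copies were not searched for.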

Additional observations from a re-analysis of the deposited data

Results flagged for a closer look

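In 19 of the 29 genes with a difference of at least 1, hypoxia went with a lower level in parental cells and a higher level in stem-like cells, each by more than the SD between probes. The values were UNC45A 1.43, NAV2 1.37, HINT3 1.36, STIM1 1.26, MRTFB 1.25, WDR76 1.21, BDNF 1.21, SNORD139 1.19, C1orf115 1.17, KAT5 1.17, ACP2 1.12, RSAD1 1.10, PODXL2 1.09, FOSL1 1.08, MAP3K5 1.08, DUSP1 1.04, MICALL1 1.03, CEP290 1.02 and RABGAP1L 1.01. The reverse held for 13 of the 31 genes with a difference of -1 or less. These were GDF15 -1.76, BEST1 -1.71, MIR3142HG -1.51, PRKD2 -1.39, TRIM62 -1.25, NDUFAF8 -1.15, KLHL23 -1.13, LAD1 -1.12, SNX22 -1.10, HMOX1 -1.10, NDST1 -1.03, ST7 -1.02 and USP30 -1.01. The SDs used were taken over all levels, 0.197 for the parental and 0.224 for the stem-like fold. Probes of dim genes disagree more: for the difference their SD was 0.352 at mean levels under 6.5, against 0.282 over all levels. How many of all members met the same rule was not counted. These genes were chosen by the difference itself, which favours folds of opposite sign. Second probes of UNC45A, NAV2, HINT3 and ST7 had differences of the opposite sign, at -0.12, -0.28, -0.35 and 0.34. With 1 array per group the differences were not tested.

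Probes without a gene symbol are outside the counts above. Of 2666 such probes detected on all 4 arrays, 12 had a difference of at least 1 and 15 of -1 or less. The highest stood at 3.01, above every named gene, with log2 levels of 8.50 and 7.99 in parental normoxia and hypoxia and of 7.99 and 10.49 in stem-like normoxia and hypoxia. Its gene is not named in the table used here, and the difference was not tested.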

How the results depend on the processing

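Counts at a size of 1 depended on the background correction and on dim genes. Leaving out the background correction gave 2 genes upward and 4 downward with an SD over genes of 0.2018, and the values of the authors gave 3 and 5 with an SD of 0.2025. An offset of 50 gave 6 and 12, a level of at least 7 on all arrays 6 and 10, and no detection filter 122 and 92. Median scaling gave 24 and 39, moving the median of all genes by -0.04. Requiring all of at least 2 probes past the size, an alternative chosen after seeing the data, left 0 and 1. Over the 6 settings that recompute a gene's value, the 29 and 31 genes kept their sign wherever measured, but without background correction their medians were 0.57 and -0.77. Of 205 named genes 69 were then over 1.5 times smaller, and IGFBP3 turned. With the mean of the probes GAPDH, HIF1A, PFKFB3 and VHL turned, with median scaling ARNT2, GAPDH, PFKL and VHL, and with normalization within each state PFKL. List medians of at least 0.1 in size kept their sign in all 9 settings, and 6 smaller ones turned in some: HIF pathway, cell cycle, JmjC demethylases, ribosomal proteins, lipid storage, and mitophagy and autophagy. The ranges were -0.31 to -0.10 for HIF targets, -0.29 to -0.18 for glycolysis, -0.42 to -0.18 for melanocyte and pigment genes, 0.31 to 0.42 for dedifferentiated melanoma genes, 0.19 to 0.32 for inflammatory genes, -0.27 to -0.19 for interferon genes and 0.04 to 0.15 for heat shock genes. The SD between probes of a gene was 0.352 in the dimmest and 0.247 in the brightest genes. No paired analysis was possible because each group holds 1 array.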
